A study of Homo sapiens with 8 samples.

Results

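The comparison described here is that of 4 of the 8 libraries of an RNA-sequencing series: 2 labelled dCas12a-VPR crTet against 2 labelled dCas12a-VPR crNT, chosen by their titles alone and read across every gene. The cells of all groups were TRE3G-GFP HEK293T cells. HEK293T is an established line from human embryonic kidney, and its reporter is a GFP gene behind a promoter that carries repeats of a bacterial operator sequence, which a guide called Tet addresses. Both groups received plasmids for dCas12a-VPR, a Cas12a protein without cutting activity joined to the VPR activation domains, and a plasmid for a CRISPR RNA, which was non-targeting in crNT and Tet in crTet. Growth was in DMEM with 10% FBS, and cells carrying mCherry and BFP were collected by sorting 2 days after transfection, so the cells of the 4 groups differ in the Cas protein and the guide and in nothing else that the labels name. The other 4 libraries, used here for the spread between libraries and to place each level, hold the smaller activator dCasMINI-VPR with a non-targeting guide (sgNT, 2 libraries) or the Tet guide (sgTet, 2 libraries). Whether the libraries of a group came from separate transfections is not stated, so p-values measure the spread between these libraries, which may be technical.

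VPR joins activation domains of a herpes virus protein, of the NF-kB subunit p65 and of the viral factor Rta, and raises transcription of a gene when a guide brings it to the promoter. Transfected cells are known to respond to foreign DNA and RNA through interferon genes, to stress through p53, ATF4 and the unfolded protein response, and to handling and serum through the immediate early genes, whose messages are made within minutes and decay quickly.

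Reads in genes came to between 19142986 and 20362381 in the 4 dCas12a-VPR libraries and to between 17474404 and 21081942 in all 8. The crNT libraries stood apart from the other 6 in 2 measures: 14.4% and 12.7% of their reads were unmapped, against 9.55% and 9.37% in crTet, and 1.49% and 1.46% fell in no annotated gene, against 2.23% and 1.85%; their part in the results was not tested. Between the libraries of a group, counts differed by more than sampling, with a chi-square per degree of freedom of 3.19 in crNT and 6.92 in crTet. Levels are given in CPM, the reads of a gene scaled to a common library size with TMM. Of 16 listed HEK293T markers 15 were tested, all with a mean above 1 CPM in crNT, and SOX11 had no read. Blood and endothelial markers were near 0: their tested members summed to 4.38 to 7.07 and 0.973 to 1.27 CPM over the 4 libraries, and PTPRC, MS4A1, HBB and EMCN had no read. The summed neuronal, fibroblast and epithelial markers lay at 32.8 to 42.0, 40.2 to 49.5 and 18.9 to 26.1 CPM. None of the tested members of these 5 lists was called as changed between crNT and crTet, which for such short lists is near the 6.32% of all genes tested. Of the HEK293T markers tested 20% were called. NEFM (log2 fold change 0.66) and VIM (0.35) rose in crTet, and ENO2 fell (-0.37). The cells are a bulk sample, in which fewer cells of a type and less RNA per cell cannot be told apart.

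The reporter was first checked as the guide's target. EGFP, the row that the authors added for it, stood at 2.77 and 2.66 CPM in crNT and 804 and 708 CPM in crTet. Both crTet libraries lay far above both crNT libraries, a 278-fold difference (log2 fold change 8.12 ± 0.13, adjusted p = 5.18e-26, where ± gives the standard error throughout). With dCasMINI-VPR the log2 change was 8.05, and the difference between the activators was 0.07 ± 0.21, adjusted p = 0.904. RELA, whose protein lends an activation domain to VPR, was at 109 and 118 CPM in crNT and 117 and 104 CPM in crTet (-0.03, adjusted p = 0.877), and the housekeeping genes GAPDH (0.10, adjusted p = 0.442) and ACTB (0.16, adjusted p = 0.136) were not called either.

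Beyond the reporter, changes were many and small. Of 16606 genes tested, 1049 passed a threshold of 0.05 on the adjusted p of edgeR's quasi-likelihood test and are named called (6.32%), 592 higher in crTet (3.56%) and 457 lower (2.75%). The median change was 1.34-fold, 1.38-fold among the genes that rose and 1.301-fold among those that fell, and 804 of the 1049 changed by under 1.5-fold. A change of at least 2-fold was reached by 52 risers (0.313% of genes tested) and 16 fallers (0.0964%). In every called gene the crTet libraries lay on the same side of both crNT libraries, as they did for 26.3% of all genes tested in each direction. Summed over the genes called, the risers went from 76340 to 101230 CPM and the fallers from 58639 to 46251 CPM. With scaling by library size alone the counts were 432 higher and 600 lower, so the split between directions, 56.4% higher as fitted and 41.9% with that scaling, depends on how libraries are scaled. The number of calls also depended on each dCas12a-VPR library: leaving out crNT replicate 1 or 2 gave 135 or 342, and leaving out crTet replicate 1 or 2 gave 518 or 449. Without sgTet replicate 1 or 2, whose counts differed from each other the most of any group, it was 1963 or 1965. The calls of 106 genes held whichever of the 8 libraries was left out, 74 of them higher and 32 lower in crTet.

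**Figure D1:**
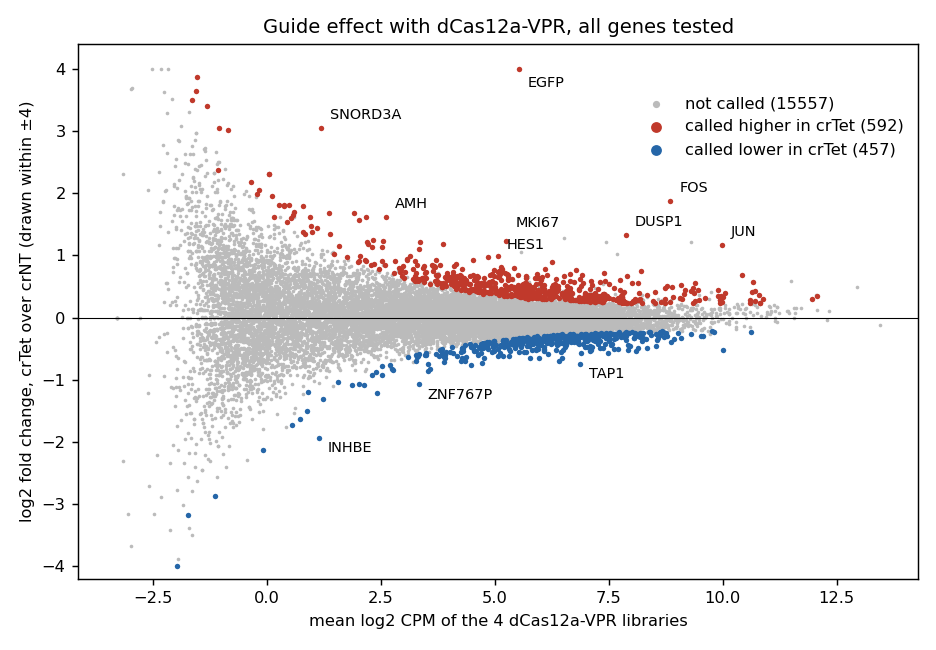
Each point is 1 of the 16606 genes tested, with its mean log2 CPM over the 4 dCas12a-VPR libraries on the x axis and its log2 fold change, crTet over crNT, on the y axis, where values beyond 4 are drawn at the edge. Genes called higher (592) and lower (457) lie close to the line at 0 over most of the range, and FOS, DUSP1 and JUN stand out among genes with many reads.

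Where the group means of these genes lay among all 4 groups was also read. For 566 of the 592 risers crNT had the lowest mean of the 4 groups, while crTet had the highest mean for 268. For 438 of the 457 fallers crNT had the highest mean, and crTet the lowest for 235. Over all genes tested crNT was lowest for 5106 and highest for 4956, and crTet for 3616 and 3768. Risers were selected for crTet above crNT and fallers for the reverse, which itself favours these ranks. The counts over all genes carry no such selection and are not a matched comparison. In 322 risers and 222 fallers crNT was the outermost group while at least 1 dCasMINI-VPR group lay beyond crTet on the other side, and in 24 and 19 it was crTet alone that was outermost.

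Subunits of AP-1 were among the genes that rose the most. AP-1 is a dimer of FOS and JUN family proteins that binds promoters and enhancers of growth and stress genes. FOS (ENSG00000170345.10, chromosome 14, 75278774 to 75282230, hg38) stood at 211 and 273 CPM in crNT and 931 and 841 CPM in crTet, and JUN (ENSG00000177606.8, chromosome 1, 58780788 to 58784327) at 617 and 737 CPM in crNT and 1588 and 1453 CPM in crTet. Neither gene's crTet libraries overlapped with crNT, and in crNT both were below the dCasMINI-VPR libraries, which held 311 and 390 CPM of FOS in sgNT and 439 and 382 in sgTet. The rise was 3.66-fold for FOS (1.87 ± 0.16, adjusted p = 0.00106) and 2.25-fold for JUN (1.17 ± 0.08, adjusted p = 3.32e-11). FOSB, a FOS relative, was at 251 and 209 CPM in crNT and 419.7 and 353 CPM in crTet (0.75 ± 0.12, adjusted p = 0.00219), and JUNB, which can stand in for JUN, at 51.1 and 53.4 CPM in crNT and 90.6 and 90.05 CPM in crTet (0.79 ± 0.10, adjusted p = 1.23e-05). For these the crTet libraries were the highest of all 8, since sgNT and sgTet held means of 226 CPM in sgNT and 174 CPM in sgTet for FOSB and 46.2 CPM in sgNT and 35.2 CPM in sgTet for JUNB.

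Of 14 AP-1 subunits tested 6 rose and 2 fell while the list median was -0.03, and their summed level went from 1749 and 1871 CPM in crNT to 3655 and 3272 CPM in crTet. JUND (0.30, adjusted p = 0.0267) and MAF (0.36, adjusted p = 0.0325) were the smaller risers. ATF3, a repressor of stress genes that pairs with JUN, moved against FOS and JUN, from 225 and 216 CPM to 175 and 154 CPM (-0.42 ± 0.08, adjusted p = 0.000789). FOSL2 fell as well, from 12.2 and 11.3 to 7.81 and 7.64 CPM (-0.61, adjusted p = 0.0480). The calls of FOS, FOSB, JUN and JUNB held without any 1 library, but FOSB was not called once the trend of fold change on length and GC content had been removed (adjusted p = 0.0983). ATF3 was not called without crNT replicate 1 (adjusted p = 0.0535), and JUND, MAF and FOSL2 each lost the call without either crNT library or without crTet replicate 1.

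DUSP1, a phosphatase that switches off MAP kinases (ENSG00000120129.6, chromosome 5, 172768090 to 172771195), was at 134 and 163 CPM in crNT and 359 and 389 CPM in crTet, with sgNT at 240.0 and 261 and sgTet at 271 and 261 CPM. The crNT libraries were thus lowest and the crTet libraries highest of the 8, a 2.52-fold difference (1.33 ± 0.08, adjusted p = 6.19e-13). Its promoter and that of JUND hold the palindrome TGACGTCA, the site to which CREB and ATF proteins are known to bind, and are printed here because among the risers of the 4 early gene lists these and MAF hold it. The sequences run from 250 bases before to 50 bases after the RefSeq start (GRCh38.p14), and capitals mark the palindrome.
DUSP1 (chr5:172771146-172771445, minus strand): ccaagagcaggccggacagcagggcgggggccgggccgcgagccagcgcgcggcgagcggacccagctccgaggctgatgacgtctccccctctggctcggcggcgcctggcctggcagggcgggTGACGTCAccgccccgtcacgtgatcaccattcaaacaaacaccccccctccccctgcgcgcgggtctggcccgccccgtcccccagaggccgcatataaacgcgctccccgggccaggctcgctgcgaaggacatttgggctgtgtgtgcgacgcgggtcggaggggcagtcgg
JUND (chr19:18281573-18281872, minus strand): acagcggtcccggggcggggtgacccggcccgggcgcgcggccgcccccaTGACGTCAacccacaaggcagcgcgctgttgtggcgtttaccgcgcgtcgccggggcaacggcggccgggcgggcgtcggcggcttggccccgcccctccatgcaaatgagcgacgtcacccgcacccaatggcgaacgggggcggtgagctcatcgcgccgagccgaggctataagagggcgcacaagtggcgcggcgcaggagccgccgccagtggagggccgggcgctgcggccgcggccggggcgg
The palindrome lies 125 bases before the start in DUSP1 and 200 bases before it in JUND. It was found in 3 of the 16 early risers with a promoter in the table, in 7 of 60 early genes tested, and in 2.25% of all 27305 promoters of that length. Among the 11877 genes tested that have a promoter in the table it was in 3.81%, and in 5.11% of called risers and 5.96% of called fallers. The CArG box bound by serum response factor, searched for on both strands, was in none of the 16 windows, in 4 of the 60 early genes tested (6.67%) and in 1.6% of all promoters, and a window of 300 bases does not reach the more distant sites known for FOS.

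**Figure D2:**
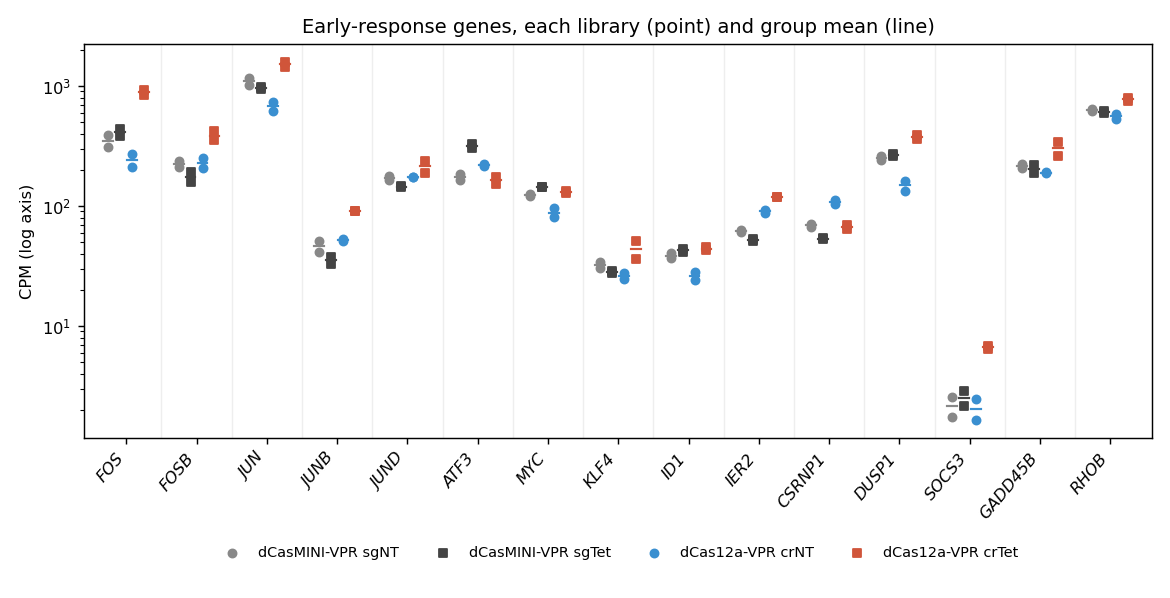
CPM on a log axis of 15 early-response genes in each of the 8 libraries (points) with group means (lines). For FOS, JUN and DUSP1 the crNT points are the lowest of the 4 groups and the crTet points the highest, while ATF3 and CSRNP1 are lower in crTet than in crNT.

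Among 22 other early transcription factors 6 rose and 1 fell, with a median log2 fold change of 0.30 against 0.01 over all genes tested. MYC, a driver of growth and ribosome production, was at 80.5 and 95.5 CPM in crNT and 133 and 129 CPM in crTet (0.57 ± 0.08, adjusted p = 6.82e-05), and ID1, an inhibitor of helix-loop-helix factors, at 24.2 and 28.3 CPM in crNT and 42.7 and 45.2 CPM in crTet (0.74 ± 0.11, adjusted p = 9.15e-05). KLF4, a zinc finger factor of growth arrest and pluripotency, rose from 27.7 and 24.7 to 50.99 and 36.1 CPM (0.73 ± 0.13, adjusted p = 0.000700), and this call was lost without crTet replicate 1 (adjusted p = 0.0686), the higher of the crTet libraries. IER2 went from 88.1 and 91.9 to 118 and 119 CPM (0.40, adjusted p = 0.00330), a call lost without crNT replicate 1 (adjusted p = 0.144), as were those of ID3 (0.40, adjusted p = 0.0213) and IER5 (0.33, adjusted p = 0.0201). CSRNP1, a nuclear protein induced by AXIN1, fell from 112 and 105 to 69.1 and 64.2 CPM (-0.70 ± 0.09, adjusted p = 1.12e-05). It fell with dCasMINI-VPR too (-0.37, adjusted p = 0.035), and the difference between the guide effects was not called. EGR1, an early zinc finger factor, did not pass the test although its levels did not overlap, at 363 and 477 CPM in crNT and 1091 and 867 CPM in crTet (1.22, adjusted p = 0.0758).

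Some genes that damp signalling were called. Of the feedback inhibitors of MAP kinase signalling 23.5% were called, with a median of 0.05. Of the genes of mRNA decay and signalling feedback 14.3% were called, with a median of 0.19. Over all genes tested the share was 6.32% and the median 0.01. Of 17 feedback inhibitors of MAP kinase signalling 3 rose (DUSP1, DUSP7 and DUSP5) and 1 fell (DUSP16), and without crNT replicate 1 the only call left in the list was a rise. Of 21 genes of mRNA decay and signalling feedback 3 rose and none fell. SOCS3, an inhibitor of cytokine receptors, went from 1.64 and 2.46 to 6.44 and 6.82 CPM (1.69 ± 0.31, adjusted p = 0.000723), the largest fold in that list, and was not called without crNT replicate 1 (adjusted p = 0.0683). GADD45B, an activator of stress kinases, was at 189 and 191 CPM in crNT and 341 and 263 CPM in crTet (0.67 ± 0.10, adjusted p = 0.000407), and RHOB, a short-lived GTPase, at 534 and 581 CPM in crNT and 793 and 756 CPM in crTet (0.47 ± 0.07, adjusted p = 4.55e-05). Both kept their calls without any 1 library. None of 18 targets of serum response factor and YAP was called, with a median of -0.03. In a list of this length that is near the 6.32% called over all genes tested.

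Pathway targets outside the early genes were called in small numbers, in lists of 10 to 18 tested members. The share called was 16.7% in each of the Notch, TGF-beta and BMP, and glucocorticoid lists. It was 10% in the WNT list, against 6.32% of all genes tested. HES1, the repressor through which Notch receptors act, was at 20.2 and 27.4 CPM in crNT and 49.7 and 44.6 CPM in crTet (0.98 ± 0.12, adjusted p = 6.44e-06), and NRARP, a brake on Notch, at 31.2 and 32.3 CPM in crNT and 51.5 and 46.2 CPM in crTet (0.62 ± 0.11, adjusted p = 0.000716). Levels of HES1 in sgNT (55.7 and 62.5 CPM) and sgTet (78.2 and 75.5 CPM) were above those of both dCas12a-VPR groups. JAG2, a Notch ligand, rose too (0.37, adjusted p = 0.0487), making 3 of 18 Notch genes, with a list median of 0.02, and JAG2 lost its call without either crNT library. With the trend of fold change on length and GC content removed, the list had 1 riser and 2 fallers and a median of -0.07, and of the 3 calls only that of HES1 was still made. Of 12 TGF-beta and BMP targets SMAD6 (0.59, adjusted p = 0.0248) and SMAD7 (0.54, adjusted p = 0.0261), which both block these receptors, rose, but no member of the list was called without crNT replicate 1, crNT replicate 2 or crTet replicate 1. RASD1, a steroid-induced Ras relative, was at 2.51 and 2.51 CPM in crNT and 7.12 and 8.36 CPM in crTet (1.62 ± 0.27, adjusted p = 0.000205) and KLF9 rose by 0.37 (adjusted p = 0.0245), giving 2 of 12 glucocorticoid targets, of which only RASD1 kept its call without any 1 library. TCF7 (0.41, adjusted p = 0.0457) was the sole call among 10 WNT targets and was lost without any 1 of 5 libraries.

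Antiviral effectors raised by interferon were the list with the most genes that fell. Interferon receptors signal to factors that bind promoters of antiviral genes. Of 40 antiviral effectors tested 25 fell and 1 rose, with a median of -0.42, and in 33 both crTet libraries lay below both crNT libraries, against 26.3% of all genes. Their summed level was 7060 and 6916 CPM in crNT and 5896 and 5556 CPM in crTet. With dCasMINI-VPR 3 of the 40 fell, with a median of -0.14. In 37 of the 40 crNT had the highest mean of the 4 groups, while crTet had the lowest in none. Leaving out crNT replicate 1 or 2 gave 6 or 17 fallers, and leaving out crTet replicate 1 or 2 gave 24 or 6.

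Of the genes of interferon signalling, STAT2, a factor activated by interferon receptors, was at 102 and 90.7 CPM in crNT and 79.1 and 69.8 CPM in crTet (-0.37, adjusted p = 0.0216), and STAT3, which also serves other cytokines, at 185 and 175 CPM in crNT and 155 and 142 CPM in crTet (-0.28, adjusted p = 0.0268). Both lost the call without crNT replicate 1, crNT replicate 2 or crTet replicate 2. Among the effectors, USP18, which removes the ubiquitin-like ISG15 and dampens the receptor, was at 218 and 217 CPM in crNT and 154 and 140.3 CPM in crTet (-0.57 ± 0.08, adjusted p = 2.45e-05). HERC5, the ligase for ISG15, was at 163 and 168 CPM in crNT and 119 and 108 CPM in crTet (-0.54 ± 0.08, adjusted p = 9.15e-05). TRIM25, a ubiquitin ligase of RNA sensing, was at 344 and 326 CPM in crNT and 256 and 224 CPM in crTet (-0.48 ± 0.07, adjusted p = 9.15e-05). USP18, HERC5 and TRIM25 kept their calls without any 1 library.

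RSAD2, which encodes the antiviral enzyme viperin, and DDX60, a helicase linked to RNA sensing, fell by similar amounts. RSAD2 was at 117 and 106 CPM in crNT and 78.7 and 63.5 CPM in crTet (-0.65 ± 0.10, adjusted p = 0.000198), and DDX60 at 76.2 and 80.6 CPM in crNT and 51.2 and 48.6 CPM in crTet (-0.65 ± 0.10, adjusted p = 9.15e-05). In both the dCasMINI-VPR libraries were lower still, with means of 29.1 CPM in sgNT and 35.3 CPM in sgTet for RSAD2 and 31.8 CPM in sgNT and 31.1 CPM in sgTet for DDX60. Their promoters are shown because they hold the spaced repeat of interferon-stimulated response elements, GAAA and again GAAA after any 2 bases, marked in capitals (in RSAD2 it lies on the other strand).
RSAD2 (chr2:6877527-6877826, plus strand): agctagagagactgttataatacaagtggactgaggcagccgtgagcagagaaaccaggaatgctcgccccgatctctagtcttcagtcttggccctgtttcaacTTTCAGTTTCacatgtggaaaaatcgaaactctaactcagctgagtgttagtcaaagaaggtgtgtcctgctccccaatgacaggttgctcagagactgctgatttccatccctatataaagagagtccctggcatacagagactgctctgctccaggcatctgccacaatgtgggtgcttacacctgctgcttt
DDX60 (chr4:168318703-168319002, minus strand): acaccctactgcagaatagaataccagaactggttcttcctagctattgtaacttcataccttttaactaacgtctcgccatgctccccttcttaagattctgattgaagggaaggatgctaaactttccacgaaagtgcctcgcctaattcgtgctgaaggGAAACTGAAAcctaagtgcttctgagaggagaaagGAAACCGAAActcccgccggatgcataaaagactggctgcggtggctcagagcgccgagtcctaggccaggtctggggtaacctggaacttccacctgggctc
The repeat starts 145 bases before the start of RSAD2, and 88 and 53 bases before that of DDX60. Searched on both strands, it was in 16 of the 25 fallers of the 4 interferon and MHC lists that have a promoter in the table (64%), in 38 of 67 members tested (56.7%) and in 4.38% of all promoters. The share among the fallers can be read only against that of the lists themselves, which were drawn up from interferon and MHC class I genes.

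Not every antiviral gene fell. IFIT1, an RNA-binding effector, was at 977 and 1035 CPM in crNT and 995 and 984 CPM in crTet (-0.02, adjusted p = 0.894), with the libraries of both groups interleaved. IFITM1, a membrane protein that blocks virus entry, was higher in crTet, at 73.3 and 68.7 CPM in crNT and 92.5 and 98.1 CPM in crTet (0.42, adjusted p = 0.0164), a call lost without any 1 of the 4 dCas12a-VPR libraries (adjusted p = 0.116, 0.183, 0.0523 and 0.141). Of 11 nucleic acid sensors, IFIH1, a sensor of long double-stranded RNA, fell from 71.5 and 64.9 to 54.3 and 49.7 CPM (-0.39, adjusted p = 0.0216), and its relative DHX58 fell (-0.59, adjusted p = 0.0371). DHX58 fell with dCasMINI-VPR as well (-0.85, adjusted p = 0.041), and the difference between its guide effects was not called. RIGI, a sensor of short double-stranded RNA, had few reads and rose from 1.02 and 1.18 to 3.27 and 2.89 CPM (1.48, adjusted p = 0.0311). None of these 3 sensors was called without crNT replicate 1 or crTet replicate 2.

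Antigen presentation by MHC class I, which interferons raise, was lower in 4 of 16 genes. TAP1, the peptide transporter (ENSG00000168394.12, chromosome 6, 32845209 to 32853978), was at 158 and 144 CPM in crNT and 95.7 and 85.1 CPM in crTet, with sgNT at 70.3 and 61.3 and sgTet at 45.4 and 53.2 CPM. Again crNT was highest and the dCasMINI-VPR groups lowest, and the fall from crNT to crTet was 1.67-fold (-0.74 ± 0.09, adjusted p = 1.12e-05). B2M, the shared light chain, was at 428 and 423 CPM in crNT and 333 and 333 CPM in crTet (-0.35 ± 0.07, adjusted p = 0.00149), a call lost without crNT replicate 1 (adjusted p = 0.0727), and HLA-E (-0.38, adjusted p = 0.00537) and HLA-B (-0.29, adjusted p = 0.0111) fell too. Without crNT replicate 1 only TAP1 of the list was called. Reads of HLA genes can be shared between near-identical copies. The list median was -0.30, and crNT had the highest mean in 14 of the 16. With dCasMINI-VPR 3 of the 16 fell, with a median of -0.23, among them TAP1 (-0.42, adjusted p = 0.0285) and HLA-B (-0.30, adjusted p = 0.037). The difference between the guide effects was called for no member.

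Targets of p53, the transcription factor that responds to DNA damage, were called in 1 direction only. Of 32 tested 14 fell and none rose, the median was -0.30, and in 25 both crTet libraries lay below crNT. CDKN1A, the cell cycle inhibitor p21 (ENSG00000124762.14, chromosome 6, 36676460 to 36687339), was at 394 and 370.1 CPM in crNT and 273 and 270.1 CPM in crTet (-0.49 ± 0.07, adjusted p = 7.76e-05). RRM2B, a ribonucleotide reductase subunit used in DNA repair, was at 167 and 165 CPM in crNT and 119 and 112 CPM in crTet (-0.53 ± 0.08, adjusted p = 9.15e-05), and SESN2, a sensor that restrains growth signalling, at 304 and 278 CPM in crNT and 205 and 202 CPM in crTet (-0.52 ± 0.07, adjusted p = 4.47e-05). TNFRSF10B, a death receptor, was at 256 and 244 CPM in crNT and 179 and 174 CPM in crTet (-0.50 ± 0.08, adjusted p = 9.15e-05). For these 4 genes the crNT libraries were also above all dCasMINI-VPR libraries, and over the list crNT had the highest mean in 24 genes. With dCasMINI-VPR 7 of the 32 fell as well, with a list median log2 change of -0.22, among them CDKN1A (-0.33, adjusted p = 0.0173) and TNFRSF10B (-0.43, adjusted p = 0.00149). No member passed the test of the difference between the guide effects. HEK293T cells carry viral proteins that are known to bind p53. The number of fallers was 7 without crNT replicate 1 and 11 without each of the other 3 dCas12a-VPR libraries, and the calls of CDKN1A, TNFRSF10B, SESN2, RRM2B, AEN and SPATA18 held without any 1 library.

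Some genes of the unfolded protein response, which adjusts the endoplasmic reticulum to its load, fell as well. Of 26 genes 9 fell and none rose, with a median of -0.20. XBP1, its transcription factor, was at 336 and 320.4 CPM in crNT and 226 and 228 CPM in crTet (-0.53 ± 0.07, adjusted p = 2.45e-05), and the sgNT and sgTet means were 236 CPM in sgNT and 208 CPM in sgTet. The crNT libraries were the highest of all 8 and the crTet libraries lay within the range of the dCasMINI-VPR ones. The XBP1 promoter is printed because it holds the endoplasmic reticulum stress element, searched for on both strands as CCAAT and CCACG with any 9 bases between them and marked in capitals.
XBP1 (chr22:28800520-28800819, minus strand): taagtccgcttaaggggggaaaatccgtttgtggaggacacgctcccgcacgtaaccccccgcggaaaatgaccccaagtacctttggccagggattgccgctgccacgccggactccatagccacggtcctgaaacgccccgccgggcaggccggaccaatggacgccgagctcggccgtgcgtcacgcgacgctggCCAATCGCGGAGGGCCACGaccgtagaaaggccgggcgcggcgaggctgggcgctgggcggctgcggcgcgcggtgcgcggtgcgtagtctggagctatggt
The element starts 52 bases before the RefSeq start. It was in 2 of the 8 fallers with a promoter in the table (XBP1 and CANX), in 7 of 24 list members tested and in 0.0916% of all promoters. HERPUD1, of the degradation machinery, was at 204 and 189.6 CPM in crNT and 151 and 129 CPM in crTet (-0.49, adjusted p = 0.00359), and SEL1L, a scaffold of the same machinery, at 114 and 105 CPM in crNT and 86.02 and 80.9 CPM in crTet (-0.39, adjusted p = 0.00381). SEC24D, a coat subunit of vesicles leaving the reticulum, was at 108 and 105 CPM in crNT and 78.3 and 67.2 CPM in crTet (-0.55 ± 0.09, adjusted p = 0.000289). XBP1 and SEC24D kept their calls without any 1 library, and the list held 2 fallers with crNT replicate 1 left out, 3 with crTet replicate 2 left out and 6 with either other library left out.

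Vesicle coats, in a list made after their values had been seen, had 7 fallers and no riser among 18 genes of COPI and COPII, the coats that carry cargo between the reticulum and the Golgi. COPA was at 453 and 419.8 CPM in crNT and 324 and 314 CPM in crTet (-0.45 ± 0.07, adjusted p = 0.000132), and SEC24A (-0.44, adjusted p = 0.00578), COPB1 (-0.33, adjusted p = 0.00725), ARCN1 (-0.31, adjusted p = 0.00785), SEC23A (-0.30, adjusted p = 0.00968) and SEC23B (-0.28, adjusted p = 0.0241) fell with it and SEC24D. With dCasMINI-VPR the same list had a median of 0.07 and no call, and 6 of its members passed the test of the difference between the guide effects. That test uses the values seen before the list was made, so its count is no independent evidence that the guide effects differ. Between 2 and 4 members fell without any 1 of the dCas12a-VPR libraries.

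Targets of ATF4, the factor of amino acid shortage, had 7 fallers and 1 riser among 32. TRIB3, a pseudokinase that feeds back on ATF4, was at 74.1 and 69.2 CPM in crNT and 50.9 and 48.7 CPM in crTet (-0.52, adjusted p = 0.00106), and CTH, of cysteine synthesis, at 72.04 and 63.7 CPM in crNT and 46.6 and 47.97 CPM in crTet (-0.52, adjusted p = 0.00144). Neither was called without crNT replicate 1 (adjusted p = 0.0726 and 0.121), where the list held no call. The riser was CEBPB (0.41, adjusted p = 0.0274), a leucine zipper factor of inflammation and differentiation. Of 20 aminoacyl-tRNA synthetases IARS1 fell (-0.25, adjusted p = 0.0273), also not called without crNT replicate 1, and the median was -0.09. The heat shock list had 1 riser of 21, the mitochondrial co-chaperonin HSPE1, at 6.56 and 6.99 CPM in crNT and 11.9 and 19.8 CPM in crTet (1.22 ± 0.19, adjusted p = 0.000162). With dCasMINI-VPR HSPE1 rose as well (1.15, adjusted p = 0.000245), and the difference between the guide effects was 0.08 (adjusted p = 0.921). HSPE1 has pseudogenes that can share its reads. The shares called, 5% of the synthetases and 4.76% of the heat shock list, were below the 6.32% of all genes tested.

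Metabolic genes moved in part. Of 21 glycolytic genes 6 fell: the glucose transporters SLC2A3, at 29.7 and 28.6 CPM in crNT and 17.3 and 16.9 CPM in crTet (-0.77 ± 0.14, adjusted p = 0.000622), and SLC2A1 (-0.41, adjusted p = 0.00144), the enzymes ENO2 (-0.37, adjusted p = 0.0146), PGK1 (-0.23, adjusted p = 0.0316) and HK2 (-0.28, adjusted p = 0.0392), and the regulator PFKFB4 (-0.44, adjusted p = 0.0480). Of 17 hypoxia genes 1 rose and 3 fell. KISS1R, the riser, went from 0.973 and 0.345 to 2.44 and 2.17 CPM (1.80, adjusted p = 0.0201). With dCasMINI-VPR it rose as well (2.72, adjusted p = 0.00118), and the difference between the guide effects was not called. Among the fallers was P4HA1, which hydroxylates collagen, at 111 and 103 CPM in crNT and 74.4 and 75.5 CPM in crTet (-0.52 ± 0.09, adjusted p = 0.000278). Only SLC2A3 and P4HA1 of these kept the call without any 1 library. Of 29 lysosome and autophagy genes 6 fell, including the sialidase NEU1, at 83.5 and 77.5 CPM in crNT and 55.6 and 56.2 CPM in crTet (-0.53 ± 0.09, adjusted p = 0.000455), and PSAP, the precursor of saposins (-0.33, adjusted p = 0.00346). FASN, the fatty acid synthase, was at 499 and 488 CPM in crNT and 703 and 639 CPM in crTet (0.44 ± 0.07, adjusted p = 0.000187), and HSD17B7, of cholesterol synthesis, fell (-0.61, adjusted p = 0.00120), with a list median of 0.00. Of the 27 genes in the cholesterol synthesis list, which holds both, 7.41% were called, near the 6.32% of all genes tested. FTH1, the heavy chain of ferritin, was at 128 and 131 CPM in crNT and 179.6 and 208 CPM in crTet (0.58 ± 0.09, adjusted p = 8.07e-05), 1 of 3 risers among 18 NRF2 targets with TXN (0.25, adjusted p = 0.0259) and TKT (0.23, adjusted p = 0.0302). PSAP, HSD17B7, TXN and TKT each lost the call without crNT replicate 1, and FTH1 has processed pseudogenes that can share its reads.

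HOX genes, which set position along the body axis and of which HEK293T cells express many, were called in 1 direction only. Of 37 tested 11 rose and none fell, the median was 0.35, and 35 had a log2 change above 0. Both crTet libraries lay above both crNT libraries in 29 of the 37, against 26.3% of all genes. In 34 crNT had the lowest mean of the 4 groups, while crTet had the highest in 4. Risers lay in all 4 clusters. In the HOXA cluster (chromosome 7, 27092993 to 27200106) 5 of 11 rose with a median of 0.43, and in HOXB (chromosome 17, 48540894 to 48729178) 3 of 9 with 0.33. HOXC (chromosome 12, 53938765 to 54056030) had 1 riser of 8 and a median of 0.24, and HOXD (chromosome 2, 176092891 to 176190907) had 2 of 9 and 0.28.

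HOXA5 was at 64.6 and 69.5 CPM in crNT and 92.7 and 88.5 CPM in crTet (0.43 ± 0.09, adjusted p = 0.00175), with sgNT at 131 and 132 and sgTet at 123 and 107 CPM. HOXA13 was at 11.5 and 14.8 CPM in crNT and 21.6 and 22.4 CPM in crTet (0.74 ± 0.15, adjusted p = 0.00184), HOXB9 at 199 and 198 CPM in crNT and 257 and 241 CPM in crTet (0.33 ± 0.07, adjusted p = 0.00380) and HOXB8 at 17.1 and 20.6 CPM in crNT and 29.4 and 28.1 CPM in crTet (0.61 ± 0.13, adjusted p = 0.00396). HOXB13 was the tested member with the lowest change, at 47.9 and 46.7 CPM in crNT and 40.5 and 45.1 CPM in crTet (-0.14, adjusted p = 0.506). No HOX gene was called without crNT replicate 1, where the list median was 0.32, and 3, 7 and 5 were called without crNT replicate 2, crTet replicate 1 and crTet replicate 2. With library size scaling 7 HOX genes were called. Counts that ignore strand cannot separate HOX genes from the antisense RNAs that overlap them.

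**Figure D3:**
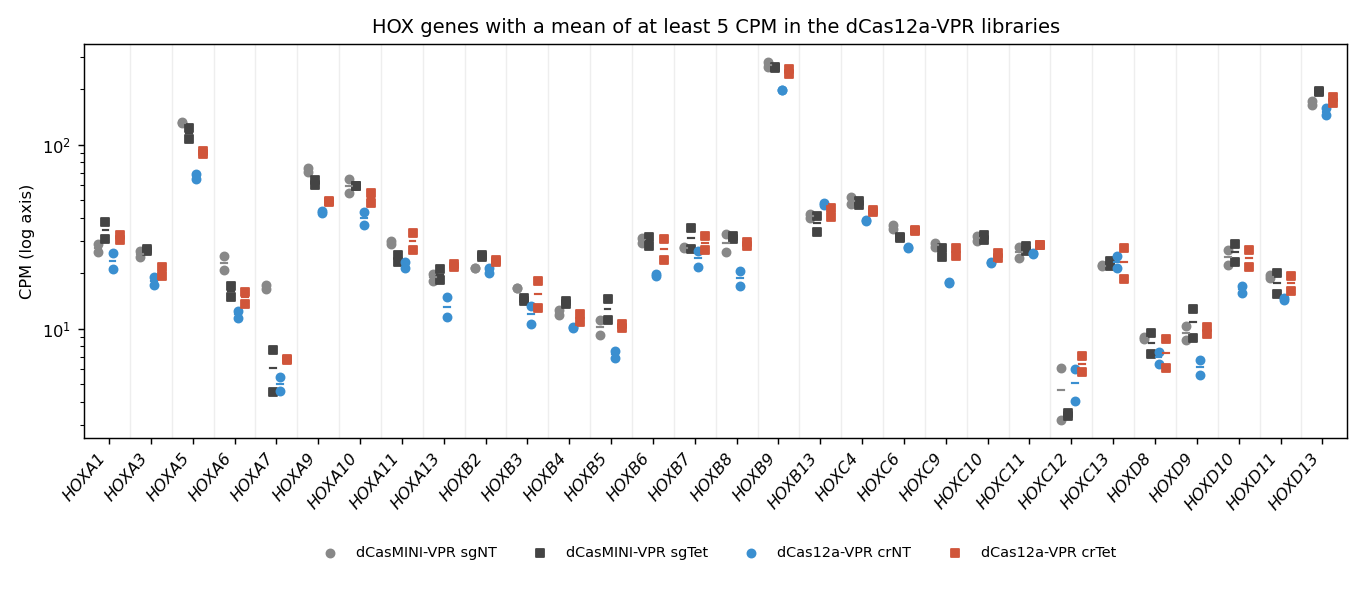
CPM on a log axis of the HOX genes with a mean of at least 5 CPM in the dCas12a-VPR libraries, in each of the 8 libraries (points) with group means (lines). Over all 37 tested HOX genes crNT had the lowest group mean in 34, and both crTet libraries lay above both crNT libraries in 29.

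Other developmental transcription factors expressed in HEK293T cells were collected in a list built around genes already seen to have risen, so its count of 12 risers of 23 is no independent evidence of direction. They include SOX4, of progenitor survival, at 44.01 and 51.2 CPM in crNT and 78.3 and 76.3 CPM in crTet (0.70 ± 0.10, adjusted p = 3.90e-05), NR2F1, a nuclear receptor of neural patterning, at 47.2 and 47.8 CPM in crNT and 75.4 and 72.6 CPM in crTet (0.64 ± 0.09, adjusted p = 4.45e-05), and ZIC2, of forebrain development, at 63.7 and 82.7 CPM in crNT and 116 and 118 CPM in crTet (0.67 ± 0.10, adjusted p = 0.000198). EN2, a homeobox gene of the midbrain, was at 68.6 and 79.2 CPM in crNT and 109.9 and 110.3 CPM in crTet (0.58 ± 0.09, adjusted p = 0.000162), and TSHZ1 at 22.03 and 26.6 CPM in crNT and 42.2 and 40.8 CPM in crTet (0.77 ± 0.12, adjusted p = 9.24e-05). In each the crNT libraries were the lowest of the 8. Of the 12 risers 9 kept the call without any 1 library. The median with dCasMINI-VPR was -0.02, and 9 members passed the test of the difference. That test uses the crTet and crNT values around which the list was built, so its count is no independent evidence that the guide effects differ.

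Some chromatin regulators rose, in lists that were also made after their values had been seen. Their counts of risers are therefore no independent evidence of direction. Among 28 remodellers, which move nucleosomes, 8 rose: CHD3 was at 103 and 98.6 CPM in crNT and 155 and 141 CPM in crTet (0.56 ± 0.09, adjusted p = 0.000116), SMARCA4, the motor of the BAF complex, at 201 and 194 CPM in crNT and 277 and 249 CPM in crTet (0.41 ± 0.07, adjusted p = 0.000510) and EP400 at 51.4 and 54.02 CPM in crNT and 84.5 and 70.2 CPM in crTet (0.55 ± 0.10, adjusted p = 0.000648). Among 19 histone methyltransferases and corepressors 7 rose. KMT2D, which methylates histone H3 at enhancers, was at 57.4 and 55.8 CPM in crNT and 119 and 91.4 CPM in crTet (0.89 ± 0.13, adjusted p = 0.000424), with crTet replicate 1 the highest of the 8 libraries. BAHCC1 was at 24.7 and 30.9 CPM in crNT and 49.96 and 43.5 CPM in crTet (0.75 ± 0.12, adjusted p = 0.000300). These 5 kept their calls without any 1 library. Over all genes the calls varied with length and GC content, and 4 of the 7 methyltransferase and corepressor calls and 5 of the 8 remodeller calls were also made once the trend of fold change on length and GC content had been removed.

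The nucleolus, where ribosomes are built, gave 7 risers of 21 in a list of the same origin. TCOF1, a partner of RNA polymerase I, was at 81.5 and 88.1 CPM in crNT and 149 and 141 CPM in crTet (0.77 ± 0.08, adjusted p = 4.88e-07), MYBBP1A at 137 and 142 CPM in crNT and 218 and 201 CPM in crTet (0.58 ± 0.08, adjusted p = 2.18e-05) and NCL, nucleolin, at 810.3 and 819 CPM in crNT and 1152 and 1069 CPM in crTet (0.45 ± 0.07, adjusted p = 9.15e-05). In 20 of the 21 crNT had the lowest mean of the 4 groups, against 5106 of all 16606 genes tested. The list was made after these values had been seen, so neither its risers nor these ranks are independent evidence of direction.

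A minority of the messages of ribosomal proteins rose, by small amounts. Of 77 cytosolic ones 20 rose and none fell, with a median of 0.17, and 51 were above crNT in both crTet libraries. With dCasMINI-VPR 4 of the 77 rose, with a median of 0.10, and 1 member passed the test of the difference. Those 4 include RPL38 (0.40, adjusted p = 0.00895) and RPS27 (0.48, adjusted p = 0.000304). FAU, which yields a ribosomal protein fused to a ubiquitin-like one, was at 111 and 116 CPM in crNT and 152 and 191 CPM in crTet (0.59 ± 0.09, adjusted p = 9.24e-05), RPL38 at 351 and 384 CPM in crNT and 465 and 582 CPM in crTet (0.51 ± 0.08, adjusted p = 0.000278), RPS27 at 590.4 and 631 CPM in crNT and 745 and 907 CPM in crTet (0.44 ± 0.08, adjusted p = 0.000510) and RPL11 at 904 and 939.7 CPM in crNT and 1134 and 1282 CPM in crTet (0.39 ± 0.07, adjusted p = 0.000512). In each of them crTet replicate 2 was the higher of the crTet libraries, and the summed list went from 83755 and 88065 CPM in crNT to 89474 and 101293 CPM in crTet. Leaving out crNT replicate 1 or 2 gave 3 or 10 risers, and leaving out crTet replicate 1 or 2 gave 26 or 7. With the trend of fold change on length and GC content removed, 13 of the 20 calls were still made. Of 74 mitochondrial ribosomal proteins 5 rose, with a median of 0.12, and none of them was called without crNT replicate 1. Called were 6.76% of the mitochondrial ones, near the 6.32% of all genes tested that were called in either direction. Processed pseudogenes of ribosomal proteins can take part of their reads.

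Some genes of the respiratory chain rose, in both the mitochondrial and the nuclear genome. Of 13 messages encoded in mitochondria 8 rose, with a median of 0.55, and in 12 both crTet libraries lay above crNT. MT-ND3, of complex I, was at 546 and 573 CPM in crNT and 736 and 902 CPM in crTet (0.55 ± 0.08, adjusted p = 9.05e-05), MT-ND5 at 1051 and 1107 CPM in crNT and 1723 and 1743 CPM in crTet (0.68 ± 0.12, adjusted p = 0.0118) and MT-ATP6, of the ATP synthase, at 1289 and 1364 CPM in crNT and 1878 and 2083 CPM in crTet (0.58 ± 0.12, adjusted p = 0.0181). The ribosomal RNA MT-RNR2 went from 3802 and 3862 to 4686 and 5106 CPM (0.35, adjusted p = 0.00257), a call lost without crNT replicate 1 (adjusted p = 0.0862). By complex, 5 of 7 subunits of complex I rose, 1 of 3 of complex IV, 1 of 2 of the ATP synthase, and the 1 of complex III. Mitochondrial genes held 2.97% and 3.04% of gene reads in crNT and 3.90% and 4.03% in crTet, with 3.09% and 3.33% in sgNT and 4.57% and 3.49% in sgTet. With dCasMINI-VPR the list median was 0.38, and no member passed the test of the difference. Without crNT replicate 1 or crTet replicate 2 only 1 member was called.

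Among 71 nuclear genes of the same chain 18 rose and none fell, with a median of 0.18. With dCasMINI-VPR 6 of the 71 rose, with a median of 0.10, and no member passed the test of the difference. Those 6 include UQCRQ (0.64, adjusted p = 0.00148) and ATP5MF (0.83, adjusted p = 0.000974). UQCRQ, of complex III, was at 26.7 and 26.6 CPM in crNT and 39.9 and 53.7 CPM in crTet (0.81 ± 0.12, adjusted p = 7.10e-05), UQCRB at 115 and 118 CPM in crNT and 149 and 170.0 CPM in crTet (0.46 ± 0.08, adjusted p = 0.000510), and the ATP synthase subunits ATP5MF at 14.04 and 12.02 CPM in crNT and 21.5 and 26.1 CPM in crTet (0.87 ± 0.15, adjusted p = 0.000315) and ATP5PD at 26.3 and 27.97 CPM in crNT and 39.7 and 45.7 CPM in crTet (0.65 ± 0.12, adjusted p = 0.000716). These 4 kept the call without any 1 library. Risers were 7 of 33 in complex I, 3 of 10 in complex IV, 2 of 9 in complex III and 6 of 15 in the ATP synthase, and none of 4 in complex II. With crNT replicate 1 or 2 left out 5 or 8 rose, and with crTet replicate 1 or 2 left out 18 or 4. ADRM1 (0.41, adjusted p = 0.00896) was the sole call among 32 proteasome subunits, and was lost without crNT replicate 1.

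The cell cycle lists had medians close to the 0.01 of all genes tested. Of 44 genes of DNA replication and S phase 3 rose and 2 fell, with a median of -0.03. That is 11.4% called, against 6.32% of all genes tested. CLSPN, a checkpoint adaptor, was at 46.8 and 43.6 CPM in crNT and 66.7 and 61.9 CPM in crTet (0.51 ± 0.09, adjusted p = 0.000863), while CDC6, which loads the replicative helicase, was at 223 and 218 CPM in crNT and 174 and 174 CPM in crTet (-0.35, adjusted p = 0.00288). Of 37 G2 and mitosis genes 3 rose (8.11%, near the share of all genes tested that were called), with a median of 0.01. MKI67, the proliferation antigen, was at 21.5 and 28.7 CPM in crNT and 64.2 and 53.3 CPM in crTet (1.23 ± 0.19, adjusted p = 0.00484), with sgNT at 48.1 and 68.4 and sgTet at 68.4 and 59.6 CPM, so that crNT alone was low. CENPE, a kinetochore motor, went from 7.38 and 6.30 to 16.4 and 12.96 CPM (1.10 ± 0.20, adjusted p = 0.00135). Both are very long messages, and both kept the call without any 1 library. UBE2C rose by 0.37 (adjusted p = 0.00500), and it and CDC6 were not called without crNT replicate 1. None of 25 tested replication-dependent histones was called, which in a list of this length is near the 6.32% of all genes tested. In these libraries of poly(A) RNA the listed histones held only 0.018% of gene reads in each crNT and crTet library.

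**Figure D4:**
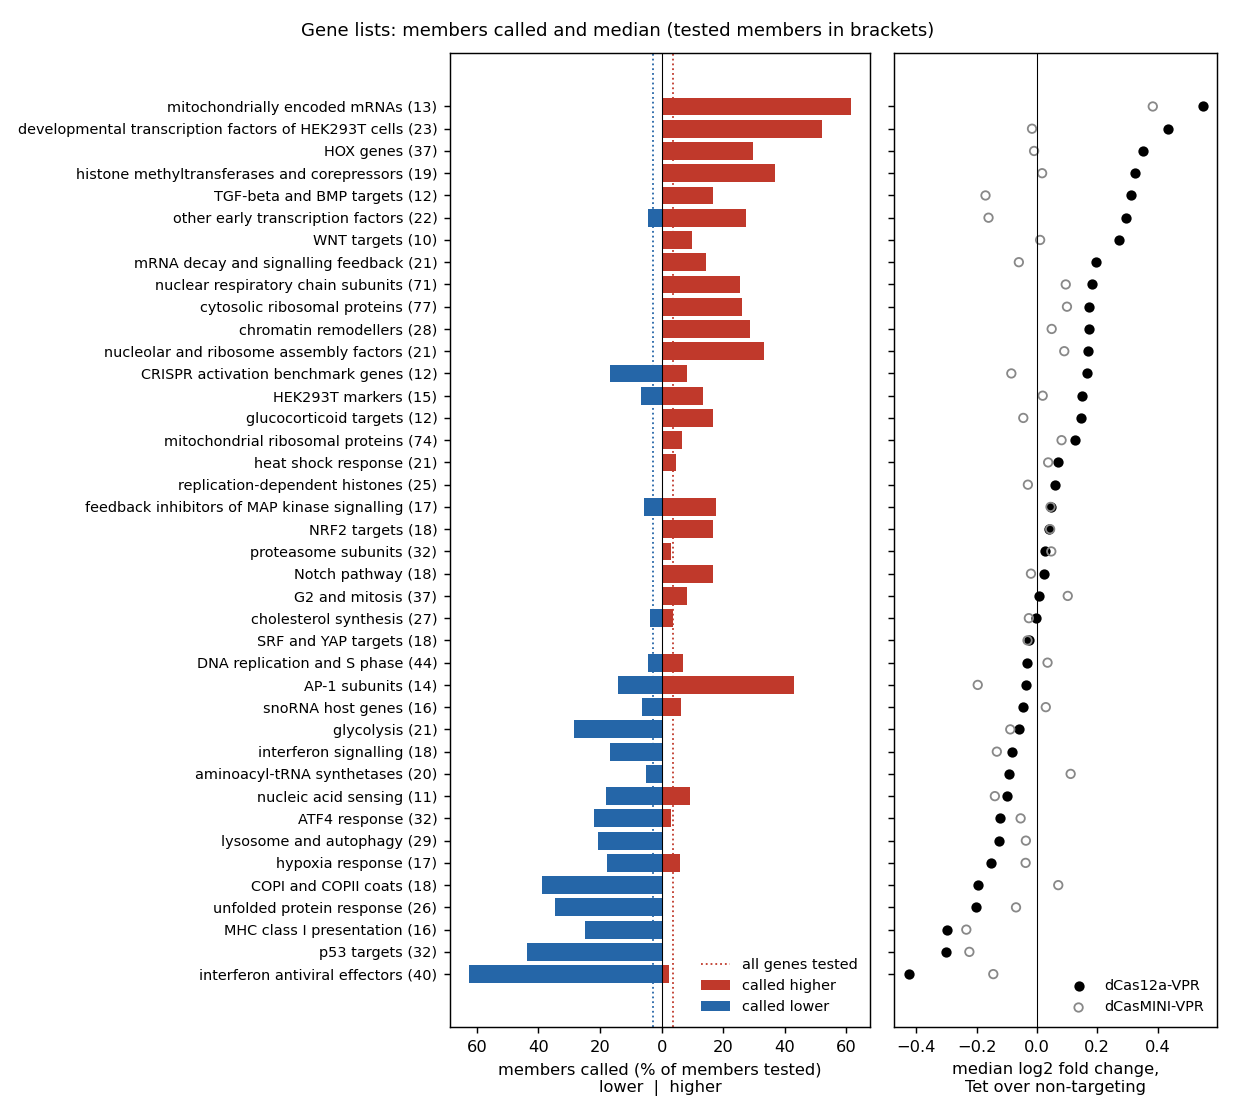
Left, the percentage of tested members called higher (red, to the right) and lower (blue, to the left) in each gene list of at least 10 tested members, with dotted lines at the shares over all genes (3.56% and 2.75%). Right, the median log2 fold change with dCas12a-VPR (filled) and dCasMINI-VPR (open): interferon antiviral effectors have the lowest dCas12a-VPR median (-0.42) and mitochondrially encoded mRNAs the highest (0.55).

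Calls were unevenly spread over transcript properties. Among the 2401 genes with over 60% GC in their longest transcript 179 rose and 14 fell, and among the 2464 with up to 40% GC 29 rose and 125 fell. Of 1158 genes with up to 1000 bases of exon 23 rose and none fell, and of 3151 with over 8000 bases 159 rose and 96 fell. By chromosome, 79 of 1089 genes of chromosome 19, which is rich in GC, rose and 8 fell, and 9 of 16 mitochondrial genes rose. With the trend of fold change on length and GC content removed, 580 genes were higher and 686 lower, 829 of the 1049 among them, and the share of risers was 45.8%. The part of GC content and length in each result was not tested beyond this. By gene type, 4.05% of 13642 protein coding genes rose and 3.29% fell, while 19 of 1762 long non-coding RNAs rose and 3 fell. Calls also varied with level. Risers made up 0.4% of genes with a mean log2 CPM under 0 and 10.6% of those at 8 and over, and fallers 0.16% and 7.04%. Neither gene types nor lists were compared at matched levels.

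**Figure D5:**
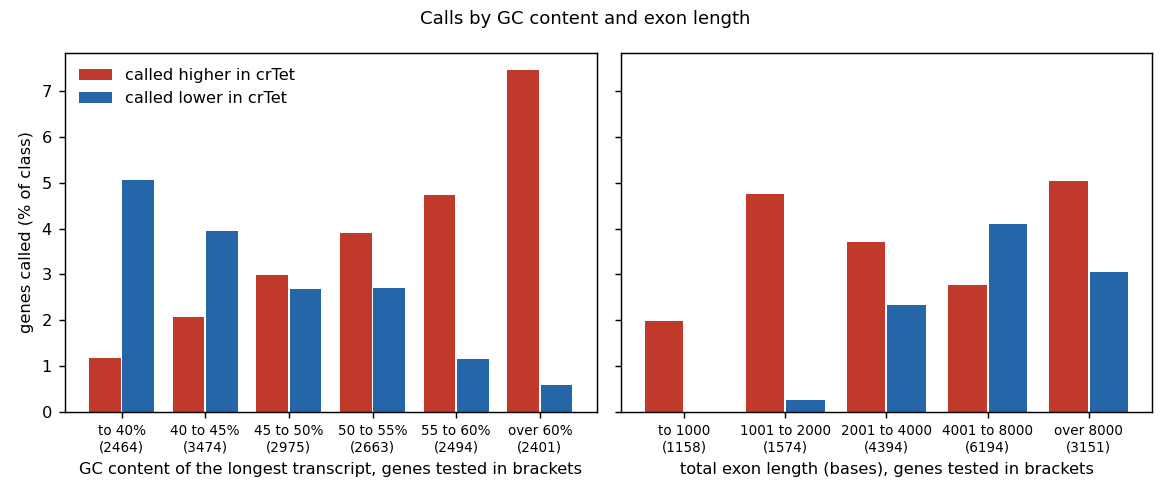
Percentage of genes called higher (red) and lower (blue) in crTet by GC content of the longest transcript (left) and by total exon length in bases (right), with the number of genes tested in brackets. Risers make up 1.18% of the class with the lowest GC content and 7.46% of the highest, fallers 5.07% and 0.583%, and no gene of up to 1000 bases was called lower.

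The largest folds were mostly of genes with few reads. AMH, the anti-Müllerian hormone gene, was at 2.92 and 3.99 CPM in crNT and 11.1 and 10.1 CPM in crTet (1.61 ± 0.22, adjusted p = 2.42e-05), and sgNT and sgTet held 11.3 CPM in sgNT and 10.7 CPM in sgTet, so crNT alone was low. The pseudogene GTF2IP13 was at 2.31 and 2.27 CPM in crNT and 6.78 and 6.76 CPM in crTet (1.56 ± 0.27, adjusted p = 0.000382), and reads of such copies can be shared with related genes. SNORD3A, the U3 RNA of ribosome assembly, which lacks a poly(A) tail and is counted here only as far as it was captured, was at 0.666 and 0.837 CPM in crNT and 4.34 and 8.26 CPM in crTet (3.05 ± 0.40, adjusted p = 3.90e-05). BCYRN1, a primate RNA of translation control, was at 2.41 and 4.04 CPM in crNT and 7.03 and 8.31 CPM in crTet (1.24 ± 0.25, adjusted p = 0.00188), a call lost without crNT replicate 1 (adjusted p = 0.154). ZBTB3, a zinc finger gene (1.68, adjusted p = 0.00683), and MTLN, a mitochondrial microprotein (1.23, adjusted p = 0.00310), each lost the call without crNT replicate 1 or crTet replicate 2, and HLX (1.35), JTB (1.44) and the antisense RNA HOXD-AS2 (1.38) lost it without both crNT libraries in turn and crTet replicate 2.

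Among the fallers with the largest folds, ZNF767P, a pseudogene, was at 15.99 and 12.9 CPM in crNT and 6.54 and 7.23 CPM in crTet (-1.07 ± 0.17, adjusted p = 0.000198) and kept its call without any 1 library. Here crTet alone was low, since sgNT and sgTet held 15.8 CPM in sgNT and 12.6 CPM in sgTet. INHBE, an activin subunit raised by stress of the reticulum, was at 3.95 and 4.28 CPM in crNT and 1.32 and 0.826 CPM in crTet (-1.93 ± 0.46, adjusted p = 0.00835), and the dCasMINI-VPR means were 0.792 CPM in sgNT and 0.497 CPM in sgTet. HSPB8, a small heat shock protein, was at 8.30 and 7.58 CPM in crNT and 3.81 and 3.05 CPM in crTet (-1.21 ± 0.27, adjusted p = 0.00492), and DNAI3, of the ciliary motor, at 16.4 and 15.2 CPM in crNT and 9.12 and 8.62 CPM in crTet (-0.83 ± 0.18, adjusted p = 0.00331). INHBE, HSPB8 and DNAI3 were not called without crNT replicate 1 (adjusted p = 0.0956, 0.119 and 0.0888), nor were INHBE and HSPB8 without crTet replicate 2 (0.122 and 0.0796). INHBE was also lost without crNT replicate 2 (0.0968). The remaining genes chosen for the size of their fall, CALCRL, SMG1P5, SAMD9L, GBP1, BAALC-AS1, LOXL4, PLCL1, IL11RA, MX2, NEK11 and GARNL3, lost the call without crNT replicate 1 and without at least 1 other library.

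At under 2 CPM the counts are small enough to be given as reads. ZNF284, a zinc finger gene, had 22 reads in crNT and none in crTet, at least 7.34-fold lower when the crTet pair is set at the floor of 3 counts in all. ATOH1, a neural factor, had 4 and 2 reads in crNT and 14 and 36 reads in crTet, and FLJ30679 had 0 and 2 reads in crNT and 24 and 9 reads in crTet. RTEL1-TNFRSF6B, a read-through gene, had 1 and 1 reads in crNT and 7 and 18 reads in crTet. UPK1B had 2 and 4 reads in crNT and 15 and 17 reads in crTet. With dCasMINI-VPR UPK1B rose as well, from 8 and 3 reads in sgNT to 81 and 75 reads in sgTet (3.68, adjusted p = 0.000131). The difference between its guide effects was not called. In these 5 genes no crTet library overlapped with crNT, and each lost the call without either crNT library. Counts of this size bear on detection more than on the size of a change.

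Whether the guide effect differed between the activators was tested directly, in libraries that the comparisons do not share. With dCasMINI-VPR 132 genes were called (0.795%), and the difference between the guide effects was called for 224 genes (1.35%), 140 with a higher effect in dCas12a-VPR (0.843%) and 84 with a lower one (0.506%). With the trend of fold change on length and GC content removed, the split turned to 84 higher and 110 lower, and 108 of these 194 genes were among the 224. The count was 30 or 71 with crNT replicate 1 or 2 left out, 111 with crTet replicate 1 left out, and 28 and 1835 with sgNT replicate 2 and sgTet replicate 2 left out. DUSP1 had a guide effect of 1.33 with dCas12a-VPR and 0.08 with dCasMINI-VPR (1.25 ± 0.11, adjusted p = 1.24e-08). JUN was similar, with 1.17 and -0.18 (1.35 ± 0.11, adjusted p = 4.12e-09), and so were JUNB (1.18 ± 0.15, adjusted p = 8.41e-06) and FOS (1.64 ± 0.22, adjusted p = 0.0231). ATF3 moved in opposite directions, by -0.42 and 0.86 (-1.28 ± 0.11, adjusted p = 3.12e-09). Of the interferon genes, RSAD2 (-0.93 ± 0.15, adjusted p = 0.00130), DDX60 (-0.62 ± 0.14, adjusted p = 0.0231), HERC5 (-0.47 ± 0.12, adjusted p = 0.0360) and IFIT3 (-0.49, adjusted p = 0.0127) passed, while 36 of 40 antiviral effectors did not. Among 37 HOX genes 6 passed, all with the higher effect in dCas12a-VPR, and among 32 p53 targets none did.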

How the data were processed

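The authors deposited 1 gene count table per library from poly(A) RNA, made with STAR on hg38 per the submitters' processing notes. STAR's version and the gene annotation are not given in the sources used here. The 60652 rows were named through GENCODE 29 positions (58405 matched) and symbols (42023). The unstranded counts of genes were used after the 4 rows of unassigned reads had been removed. All 8 libraries were fitted together in edgeR 4.0.16 (R 4.3.3) with TMM scaling, its default expression filter and the quasi-likelihood test, with Benjamini-Hochberg adjustment over all 16606 genes tested and calls at 0.05. The comparisons were crTet against crNT, the same for dCasMINI-VPR, and their difference as an interaction contrast. In counts simulated for the dCas12a-VPR comparison over 16072 genes, 98% of 2-fold and 58% of smaller changes (log2 0.5) were recovered. These changes were planted only in genes with many reads, and every gene was given the same spread. The shares therefore do not apply to genes with few reads or a wider spread. A floor of 3 counts stands for 0.142 to 0.172 CPM per library and covers counting error only. DESeq2 1.42.0, other scalings, filters, strand columns, a replicate block, a fit without the trend on transcript length and GC content, and leaving out each library were the alternatives.

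The genes and lists were chosen with earlier results of these data known. Genes are named where they had the largest called changes (15 per direction; 8 per direction in CPM; 6 per direction at low counts), where they were among up to 4 called members per direction with the smallest adjusted p in each of 42 lists, or among the 8 largest differences per direction. EGFP, RELA, GAPDH and ACTB were named whatever their values. EGR1, IFIT1, IFIT3, HOXB13, the members of 5 lists added later (remodellers, methyltransferases and corepressors, nucleolar factors, vesicle coats, developmental factors), and other list members outside these limits were chosen after their values were seen. A few genes are not reported here. Promoter sequences are from RefSeq (GRCh38.p14).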

Additional observations from a re-analysis of the deposited data

Results flagged for a closer look

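For 41 of the 165 genes named by set rules the Tet guide effect differed between dCas12a-VPR and dCasMINI-VPR. Over all 16606 genes tested it differed for 224 (1.35%). Most genes were named for this difference or for the crTet and crNT values that enter it, so the count of 41 was partly fixed by the naming. The difference was tested itself, as an interaction contrast in edgeR's quasi-likelihood fit over all 8 libraries, adjusted over all genes. Each value in brackets is that difference in log2 units, dCas12a-VPR effect minus dCasMINI-VPR effect, so a positive value means a higher effect with dCas12a-VPR.

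Among early and signalling genes the difference was positive for FOS (1.64), JUN (1.35), JUNB (1.18), FOSB (1.12), DUSP1 (1.25), KLF4 (0.92), IER2 (0.65), GADD45B (0.74), RHOB (0.52), RASD1 (1.65), SMAD7 (0.98) and CEBPB (0.73), and negative for ATF3 (-1.28). Among the interferon genes it was negative for RSAD2 (-0.93), DDX60 (-0.62) and HERC5 (-0.47). Of the HOX genes named, HOXA7 had 1.90, HOXA5 0.62 and HOXB9 0.38. HOXA7 was not called with dCas12a-VPR, at 0.44, and its dCasMINI-VPR effect was -1.45.

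Among metabolic, cell cycle and trafficking genes FASN (0.42), FTH1 (0.60) and UHRF1 (0.51) were positive, and CANX (-0.38), CLTC (-0.39), SEC24D (-0.58), SCARB2 (-0.48), IARS1 (-0.39) and CDC6 (-0.39) were negative.

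The transcription regulators VGLL2 (-2.72) and NKX2-5 (-1.80), the RNA-binding protein RBM47 (-1.07) and USH1G (-1.50) had guide effects of 2.84, 1.96, 0.97 and 1.19 with dCasMINI-VPR, and none of them was called with dCas12a-VPR. The antisense RNA IRS4-AS1 (1.84) had -1.67 with dCasMINI-VPR. Higher effects with dCas12a-VPR were found for SNORD3A (2.38), LBHD1 (2.10), AMH (1.69), GTF2IP13 (1.68) and ATOH1 (4.595), and lower ones for RMDN2 (-1.88), BAALC-AS1 (-1.60) and LINC02798 (-7.32). The values of ATOH1 and LINC02798 rest on few reads and depend on the prior count.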

How the results depend on the processing

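The EGFP change stayed called, at 7.98 to 8.31, under every alternative run. The 1049 calls of the guide effect with dCas12a-VPR became 1785 with the 4 dCas12a-VPR libraries fitted alone (1043 shared with the 1049) and 661 on forward-strand counts, and stayed within 1.5 times of 1049 under the other settings that kept all libraries, with 1045 in DESeq2. Leaving out 1 library gave 135 to 1965. The 224 differences between guide effects became 450 with no filter on low counts and 106 on forward-strand counts, 28 to 1835 on leaving out 1 library, and 84 higher and 110 lower after removal of the trend on length and GC content. The causes were not tested. LBHD1 reversed on forward-strand counts, to -0.027 (adjusted p = 0.943).

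With the replicate number as a block within each construct, the guide effect gave 1201 calls and the difference 347. Same-numbered libraries deviated together with a correlation of 0.0757 in the dCas12a-VPR groups, and the labels tie them to no shared batch, so the numbers are shared labels only.

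With 2 libraries per group, leaving out 1 leaves a lone library that is assumed to vary like the other groups. FOSB lost its call with the length and GC trend removed (adjusted p = 0.0983). Length and GC content were known for 16471 of 16606 genes (99.2%).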
